A study of Mus musculus with 30 samples.

Results

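Astrocytes of mice with experimental autoimmune encephalomyelitis (EAE) were compared after treatment with a RIPK1 kinase inhibitor and after vehicle. The genes described are those with a mean of at least 1 on the log2 FPKM scale (the log2 of a fragment count corrected for gene length and library size) over the 11 libraries of both groups, which gave 11240 of the 30952 genes of the table. The minimum fell between Zfp40, just inside it at 1.00158, and Lmbrd2, just outside it at 0.999973. All animals were female C57BL/6 mice. EAE was induced with the myelin peptide MOG35-55, and dosing began when a mouse reached a clinical score of about 1 and went on for 3 days, BID, by oral gavage. The EAE-vehicle group (6 mice) received 20% Captisol, a modified cyclodextrin, and the EAE-RIPK1inh-1 group (5 mice) received 50 mg/kg of the kinase inhibitor GSK'547. Libraries of 4 naive mice, which had no EAE, are given as a level beside them. Spinal cord astrocytes were sorted as GLAST-positive cells that lacked CD11b, CD45 and CD140a. The clinical score of each mouse at collection was not used here.

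RIPK1 is a kinase recruited to the TNF receptor, where it acts as a scaffold for NF-kB signaling and, through its kinase activity, promotes inflammatory transcription or cell death by apoptosis or, with RIPK3 and MLKL, necroptosis. Astrocytes buffer extracellular potassium, clear neurotransmitters, form gap junction networks and supply neurons with lipid, including cholesterol carried on apolipoprotein E. In EAE, T cells and myeloid cells enter the spinal cord, and astrocytes take on a reactive, interferon-exposed state.

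The libraries differed in how many genes they detected. EAE-vehicle replicate 1 (library 20A) held signal for 6728 genes and EAE-vehicle replicate 2 (library 6A) for 22109, and the other 4 vehicle libraries lay between 11511 and 15905. The EAE-RIPK1inh-1 libraries held 9898 to 14112. In library 20A, 5422 of the 11240 genes had no signal, and such genes hold values of up to 2.74 there that carry no measurement. Counts and medians without 20A, or without both 20A and 6A, are therefore given where they differ. All 8 astrocyte markers had signal in every library, and their mean level was 8.14 to 9.04 with vehicle and 8.46 to 9.07 with RIPK1inh-1 (log2 FPKM). Markers of other cells were present as well. The mean level of 8 oligodendrocyte markers was 5.60 to 9.64 with vehicle and 6.83 to 8.81 with RIPK1inh-1, while none of the 6 endothelial markers reached a mean of 1.

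**Figure D1:**
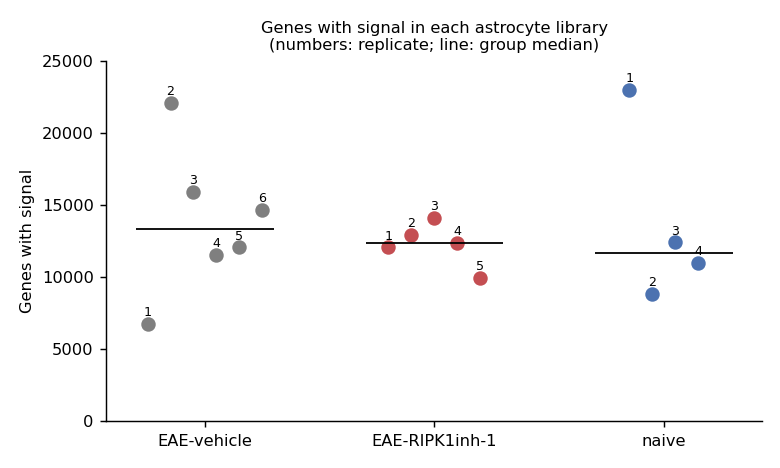
Number of genes with signal in each astrocyte library, by group, with replicate numbers and the group median as a line. EAE-vehicle replicate 1 lies lowest at 6728 genes and EAE-vehicle replicate 2 highest of the EAE libraries at 22109.

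Genes whose fold change exceeded 1.5 with an unadjusted limma p under 0.05, the cutoff of the study, were called. By this rule 721 of the 11240 genes (6.41%) were called, 408 higher (3.63%) and 313 lower (2.78%) with RIPK1inh-1. No gene passed an adjusted p of 0.05 (limma, Benjamini-Hochberg), where the smallest adjusted p was 0.840, and 725 genes (6.45%) had an unadjusted p under 0.05. Over all 30718 genes that vary, with no minimum level, 927 (3.02%) were called. Each called gene below is a call at the unadjusted level. Without 20A, 686 genes were called (6.1%), 341 higher (3.03%) and 345 lower (3.07%), and the smallest adjusted p was 0.540. Without 20A and 6A, 702 were called (6.25%), 298 higher (2.65%) and 404 lower (3.59%), so the balance of rises and falls turned with these libraries. Of the 721 called genes, 473 were called in the same direction without 20A, and 200 had signal in all 11 libraries. The deposited annotation marks 6290 of the 11240 genes as confounded with another gene, so reads of these may have been shared, and their values are uncertain in that respect. Among the genes described below, the mark is on Acss2, Aqp4, C3, Ccl19, Cd74, Ciita, Cldn10, Cxcl10, Cyp51, Eif2b4, Eif3a, Fgfr3, Gbp2, Gbp4, Gbp6, Gfap, Glul, Gspt1, Hmgcs1, Hoxa9, Htra1, Id4, Idi1, Ikbkb, Irf1, Lcat, Lhfpl2, Lss, Mlkl, Mvd, Ncam1, Prkab2, Ptpn5, Ripk1, Rpl23, Rps13, Rps16, Rps18, Slc15a2, Slc1a2, Slc2a1, Slc6a11, Slc6a9, Slc7a10, Sparcl1, Srebf2, Tgds, Tgfb3, Tgtp1, Tm7sf2, Tsc2, Tspan7 and Tubb3. The median change over the 11240 genes was 0.02 on the log2 scale. Values of 67 genes (0.596%) did not overlap between the groups, 31 of them higher with RIPK1inh-1 (0.276%). In these bulk samples of sorted cells, fewer cells of a type and less RNA per cell cannot be told apart.

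**Figure D2:**
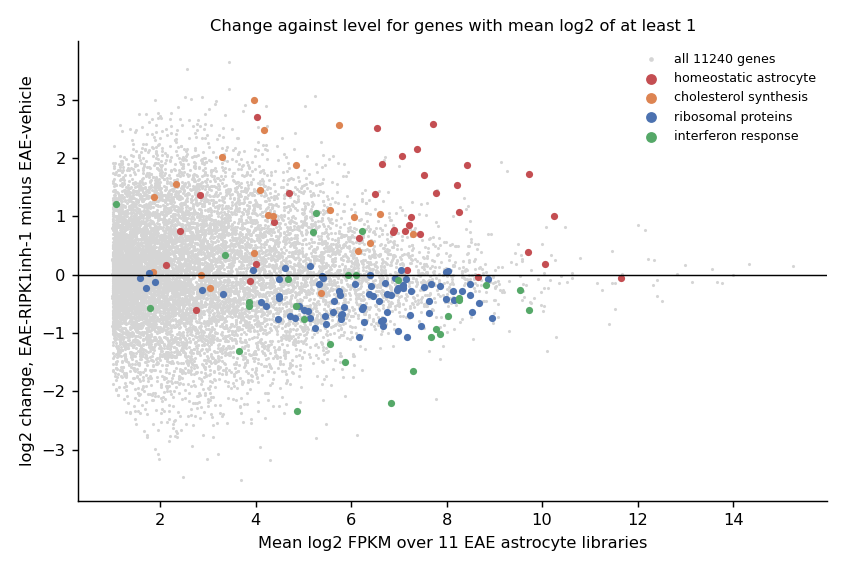
Change with RIPK1inh-1 (log2, EAE-RIPK1inh-1 minus EAE-vehicle) against mean log2 FPKM over the 11 EAE astrocyte libraries, for 11240 genes in gray and the members of 4 gene groups in color. Most homeostatic astrocyte genes and cholesterol synthesis genes lie above 0, and most ribosomal protein genes and interferon response genes lie below it.

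Genes that mark resting, homeostatic astrocytes were higher with RIPK1inh-1. Of 34 such genes, 30 had a higher mean than with vehicle, 16 were called higher and none lower, and the median change was 0.95 on the log2 scale, against 0.02 for all 11240 genes. The share called was 47.1%, against 6.41% of all genes. This list and the others were chosen with earlier results of these data known, so their shares called are descriptions and not tests. Of the 16, 14 were called without 20A, 13 without 20A and 6A, and 14 with a block for replicate number, and the list's median without 20A was 0.97. Of the 16, 8 are marked as confounded. Leaving out EAE-RIPK1inh-1 replicate 5 had the largest effect among the libraries, with 10 of the 16 still called and a median of 0.62. Beyond the 4 homeostatic genes that the naming rule gives, the others were named after their values were seen.

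The mean of the 34 genes was 5.40, 6.14, 6.42, 7.12, 6.34 and 6.20 in EAE-vehicle replicates 1 to 6 (log2 FPKM). In EAE-RIPK1inh-1 replicates 1 to 5 it was 7.39, 6.87, 7.00, 6.90 and 8.44, and the naive libraries lay between 7.75 and 8.76. Inhibitor replicate 5 was within the naive range and the highest of the EAE libraries, while vehicle replicate 4 was above inhibitor replicates 2, 3 and 4, so the groups overlapped. In microglia of the same treatment groups the median change of these genes was 0.01. Their levels in microglia are not given here, so a change near 0 cannot be told apart from low expression there. Markers of other cells moved among the same libraries. Inhibitor replicates 5 and 1, the highest of the EAE libraries for the homeostatic list, held a mean of 1.90 and 1.76 for 8 monocyte and neutrophil markers, the lowest of the EAE libraries, and their T cell marker means of 2.38 and 1.26 were the lowest with RIPK1inh-1. Of 8 oligodendrocyte markers, 6 had a lower mean with RIPK1inh-1 and none was called, with a median change of -0.39. Without 20A, 2 of them were called lower and the median was -0.69. The part of these cells in the homeostatic result was not tested.

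**Figure D3:**
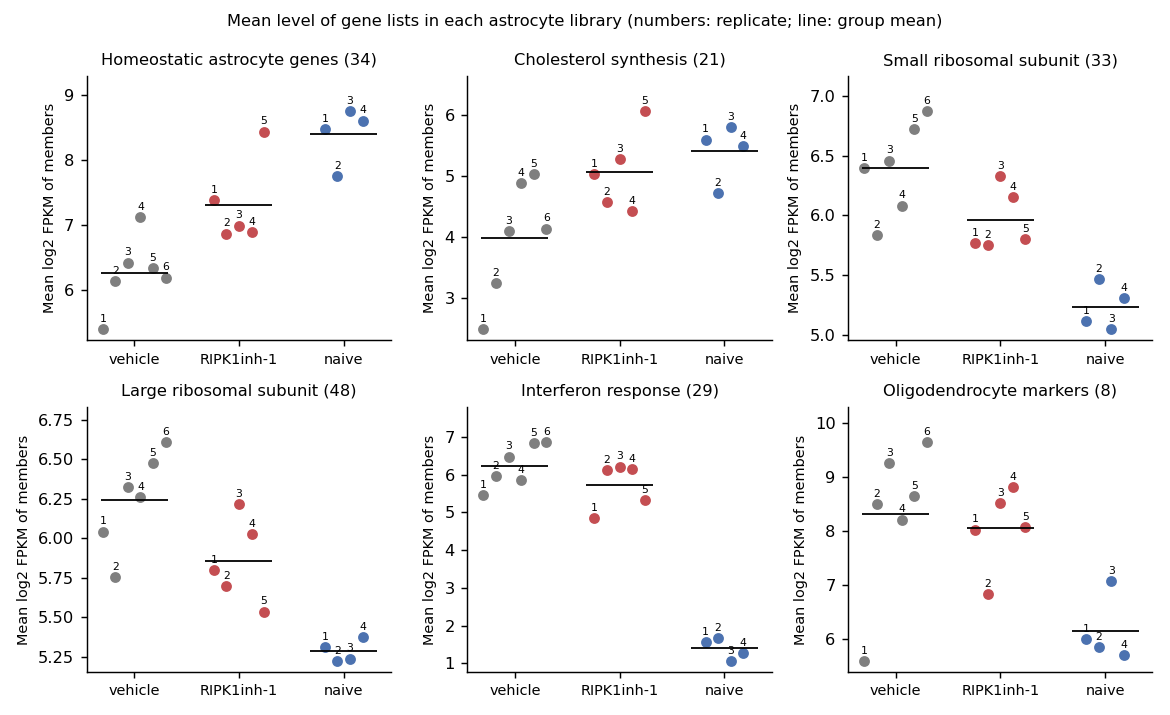
Mean log2 FPKM of 6 gene lists in each astrocyte library (numbers are replicates, lines are group means) for EAE-vehicle, EAE-RIPK1inh-1 and naive mice. For the homeostatic list the inhibitor libraries lie between 6.87 and 8.44 and the vehicle libraries between 5.40 and 7.12.

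Gjb6 (chromosome 14, 57123303 to 57133611, minus strand, GRCm38) encodes connexin 30, a gap junction channel of astrocytes. Its level with vehicle had a lowest value of 5.22, a median of 5.87 and a highest of 7.16 log2 FPKM. With RIPK1inh-1 it was 8.37, 8.38, 7.58, 7.26 and 9.23 in replicates 1 to 5. Every inhibitor library was above every vehicle library, and naive libraries lay higher still, between 9.56 and 10.38. Gjb6 rose by 2.03 ± 0.42 (SE) on the log2 scale (limma p = 0.000208, exact permutation p = 0.00649), and by 1.93 without 20A (limma p = 0.000601). Gja1, which encodes the other main astrocyte connexin, connexin 43, rose by 1.07 ± 0.40 (limma p = 0.0186, exact permutation p = 0.0173). Its values with vehicle ran from 7.38 to 8.27 and those with the inhibitor were 8.71, 8.24, 8.31, 8.06 and 10.85, so that only replicate 5 stood far above the vehicle range and reached the naive range of 10.57 to 10.97.

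Ion transport genes of the list were mixed. Atp1b2, a beta subunit of the sodium-potassium pump, went from a vehicle median of 8.97 (7.59 to 10.23) to 10.57, 10.31, 10.38, 9.73 and 12.32 with RIPK1inh-1, a rise of 1.73 ± 0.48 (limma p = 0.00275, exact permutation p = 0.00866). The astrocyte potassium channel Kcnj10 was not called, at 6.79 ± 0.86 with vehicle and 7.54 ± 0.46 with RIPK1inh-1 (mean ± SD of log2 FPKM, limma p = 0.0759, exact permutation p = 0.0909).

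Among transporters, carriers of glycine and of small neutral amino acids were called. Slc6a9, the glycine transporter GlyT1, was 4.38 to 6.55 with vehicle and 8.20, 6.98, 7.26, 6.63 and 9.29 with RIPK1inh-1, with no overlap, and rose by 1.89 ± 0.61 (limma p = 0.0074, exact permutation p = 0.00216, the smallest that 462 splits allow). Slc7a10, a carrier of small neutral amino acids including D-serine, rose by 1.71 ± 0.57 (limma p = 0.00895, exact permutation p = 0.0173), from a vehicle median of 6.61 to between 7.12 and 10.57. The glutamate genes were not called. Slc1a2, the glutamate transporter GLT-1, was 7.14 ± 0.71 with vehicle and 7.83 ± 0.81 with RIPK1inh-1 (limma p = 0.103, exact permutation p = 0.175), and Glul, glutamine synthetase, was 8.67 ± 0.48 and 8.62 ± 0.52 (limma p = 0.878, exact permutation p = 0.887). Slc6a11, the GABA transporter GAT-3, had a change of 1.40 ± 0.98 that did not pass (limma p = 0.174, exact permutation p = 0.219).

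The receptors Ntsr2 and Fgfr3 and several secreted proteins of astrocytes moved with them. Ntsr2, neurotensin receptor 2, was 6.11 to 9.37 with vehicle and 10.34, 8.80, 9.31, 8.52 and 10.27 with RIPK1inh-1, and rose by 1.87 ± 0.52 (limma p = 0.00273, exact permutation p = 0.0216), with vehicle replicate 4 alone above inhibitor replicates 2, 3 and 4. Fgfr3, a fibroblast growth factor receptor, rose by 2.69 ± 1.05 (limma p = 0.0213, exact permutation p = 0.0368) and missed the cutoff without 20A (2.18, limma p = 0.0525). Sparcl1, the synapse-promoting matrix protein hevin, was 9.22 to 10.73 with vehicle and 11.04, 10.67, 10.34, 10.46 and 11.48 with RIPK1inh-1, a rise of 1.00 ± 0.27 (limma p = 0.00196, exact permutation p = 0.0195). Agt, angiotensinogen, did not overlap between the groups, with 1.55 to 7.91 with vehicle and 8.04 to 10.67 with RIPK1inh-1. Its rise was 2.59 ± 0.98 with all libraries and 1.59 without 20A, the library that held the 1.55. That 1.55 lies within the values of 20A, up to 2.74, that carry no measurement. Itih3, a hyaluronan-binding secreted protein, rose by 2.16 ± 0.62, the tight junction gene Cldn10 by 1.38 ± 0.43 and the protease gene Htra1 by 1.40 ± 0.52. Id4, a transcriptional inhibitor, rose by 1.36 ± 0.57, and Mlc1, a membrane protein of perivascular endfeet, rose by 0.99 ± 0.46 and missed the cutoff without 20A (0.58). Of the 8 general astrocyte markers, 6 had a higher mean with RIPK1inh-1, none was called, and the median change was 0.23. Gfap, the intermediate filament that rises in reactive astrocytes, was 12.82 ± 0.46 with vehicle, 12.84 ± 0.48 with RIPK1inh-1 and 10.35 in naive astrocytes, and Aqp4, the water channel, was 8.54 ± 0.61 and 9.25 ± 0.58.

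**Figure D4:**
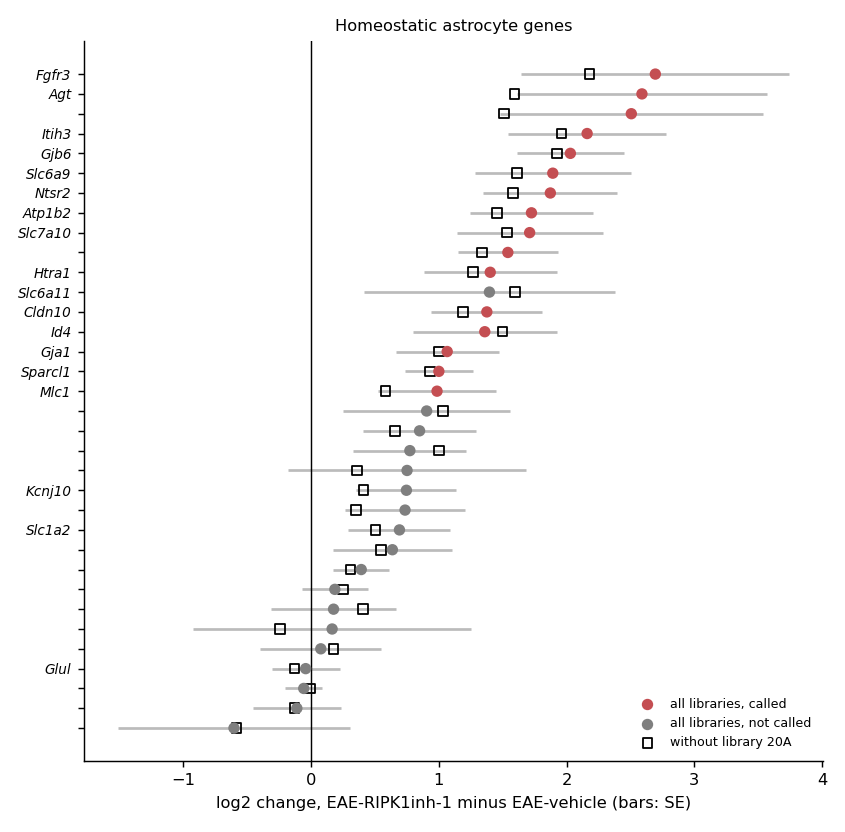
Change with RIPK1inh-1 (log2, with SE) for 34 homeostatic astrocyte genes (those named in the text are labeled) with all libraries (filled circles, red where called) and without library 20A (open squares). Gjb6 stands at 2.03 with all libraries and 1.93 without 20A, and 30 of the 34 genes lie above 0.

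Astrocytes make cholesterol from acetyl-CoA through the mevalonate pathway, and the transcription factor SREBP-2 drives its genes when sterol is low. The 300 bases around the start of the genes (250 before it and 50 after it, from RefSeq on GRCm38.p6) are printed for Mvd and Msmo1, the list members with the largest and the next largest called change, for Hmgcs1, the only matched member with a sterol regulatory element, and for Gbp2 and Gbp3, taken up further on. Sequences run 5′ to 3′. Gbp3 has another annotated start, whose window (chr3:142560106-142560405) is not printed and held none of the elements described here. In Mvd, Msmo1 and Hmgcs1 capitals mark the CCAAT box (CCAAT on either strand) and the sterol element (TCACNCCAC on either strand). In Gbp2 and Gbp3 they mark the interferon-stimulated response element (GAAA, any 2 bases, then GAAA, on either strand, where matches may overlap each other) and the GAS element (TTCNNNGAA, which reads the same on both strands), and no GAS match lies in them.
Mvd (chr8:122443373-122443672, minus strand): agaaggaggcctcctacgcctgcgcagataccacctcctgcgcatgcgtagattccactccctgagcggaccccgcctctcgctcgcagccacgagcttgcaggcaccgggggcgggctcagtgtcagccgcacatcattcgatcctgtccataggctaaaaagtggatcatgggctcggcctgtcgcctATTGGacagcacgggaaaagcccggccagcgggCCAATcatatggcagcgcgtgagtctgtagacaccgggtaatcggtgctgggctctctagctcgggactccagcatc
Msmo1 (chr8:64733529-64733828, minus strand): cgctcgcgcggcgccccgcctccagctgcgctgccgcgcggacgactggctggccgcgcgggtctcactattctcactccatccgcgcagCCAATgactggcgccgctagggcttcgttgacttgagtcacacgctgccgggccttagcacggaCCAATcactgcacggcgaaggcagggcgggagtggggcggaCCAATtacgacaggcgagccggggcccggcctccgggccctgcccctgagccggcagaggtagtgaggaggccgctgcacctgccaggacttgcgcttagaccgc
Hmgcs1 (chr13:119690101-119690400, plus strand): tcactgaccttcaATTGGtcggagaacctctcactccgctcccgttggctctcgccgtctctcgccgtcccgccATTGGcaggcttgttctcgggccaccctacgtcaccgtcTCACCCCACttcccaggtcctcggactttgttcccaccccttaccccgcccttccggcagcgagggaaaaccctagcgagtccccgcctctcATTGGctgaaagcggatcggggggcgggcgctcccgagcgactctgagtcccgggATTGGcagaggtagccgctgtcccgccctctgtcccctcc
Gbp2 (chr3:142620413-142620712, plus strand): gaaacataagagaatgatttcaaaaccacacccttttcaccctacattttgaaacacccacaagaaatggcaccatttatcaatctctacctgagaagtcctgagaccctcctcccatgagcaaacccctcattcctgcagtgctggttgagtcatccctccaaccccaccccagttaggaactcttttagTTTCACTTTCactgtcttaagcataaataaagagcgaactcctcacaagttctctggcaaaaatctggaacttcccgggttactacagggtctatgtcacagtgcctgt
Gbp3 (chr3:142559794-142560093, plus strand): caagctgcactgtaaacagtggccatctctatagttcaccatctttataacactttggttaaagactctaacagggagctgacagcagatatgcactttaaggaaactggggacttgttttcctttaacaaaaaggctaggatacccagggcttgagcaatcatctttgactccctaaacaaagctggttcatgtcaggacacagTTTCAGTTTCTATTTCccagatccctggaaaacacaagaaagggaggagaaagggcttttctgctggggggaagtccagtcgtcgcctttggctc

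Promoters were found for 16 of the 21 cholesterol genes, 19 promoters in all. A CCAAT box was in 78.9% of these 19, against 37.4% of all 32851 promoters. The sterol element was in 5.26% of the 19 (1 of the 16 genes), against 1.24% of all promoters. For the interferon response list, 23 of 29 genes matched, with 28 promoters, of which 50% held the interferon element, against 3.44% of all promoters, and 39.3% a GAS match, against 8.3%. Most other lists had lower shares, but such shares were not particular to these 2 lists. The cell cycle list, with a median change of 0.02, held a CCAAT box in 73.7% of 19 promoters. The astrocyte markers held a GAS match in 42.9% of 7 promoters. A match is a run of letters in this window and was not tested as a binding site.

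Of the 21 cholesterol synthesis genes, 19 had a higher mean with RIPK1inh-1, and the median change was 1.03 on the log2 scale. Of the 21, 4 were called higher (19%, against 6.41% of all genes) and none lower. This result leaned on the vehicle libraries 20A and 6A. Without 20A the median was 0.69 and 1 gene was called, and without both it was 0.43 and 1 gene was called. With quality weights for the libraries none of the 4 was called. With each library centered the median was 1.11 and 7 genes were called higher. Vehicle replicates 1 and 2, which are 20A and 6A, had the lowest mean levels of the list, 2.49 and 3.25, and the other vehicle libraries had 4.10, 4.89, 5.03 and 4.14. Library 20A had signal for 9 of the 21 genes, against 19 to 21 in the other EAE libraries. Its 2.49 thus includes values that carry no measurement. With RIPK1inh-1 the means were 5.03, 4.57, 5.28, 4.42 and 6.07, and naive libraries lay between 4.72 and 5.81. Inhibitor replicates 2 and 4 were thus below vehicle replicates 4 and 5.

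Mvd, mevalonate diphosphate decarboxylase (chromosome 8, 122433601 to 122443422, minus strand), was the gene called in all these settings but the weighted fit. It stood at 1.53, 0.09, 0.94, 4.57, 5.46 and 3.11 in vehicle replicates 1 to 6 and at 5.68, 5.87, 4.69, 4.05 and 7.74 with RIPK1inh-1. It rose by 2.99 ± 0.93 (limma p = 0.00566, exact permutation p = 0.0325), by 2.77 without 20A and by 2.08 without 20A and 6A (limma p = 0.0417). Vehicle replicates 1, 2 and 3 were below 2 and no inhibitor library was, but the groups overlapped. The 1.53 of vehicle replicate 1, library 20A, lies within the values there, up to 2.74, that carry no measurement. Msmo1, sterol-C4-methyl oxidase, had a vehicle median of 5.66 (0.10 to 6.98) and was 7.67, 6.49, 6.65, 6.05 and 8.82 with RIPK1inh-1. Its rise of 2.56 ± 1.00 (limma p = 0.0223, exact permutation p = 0.0563) became 2.24 without 20A (limma p = 0.0512) and 1.05 without both. Lss, lanosterol synthase, rose by 2.02 ± 0.84, and Idi1, isopentenyl diphosphate isomerase, by 1.03 ± 0.47, and neither was called without 20A.

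Other steps of the pathway did not pass. Hmgcs1, HMG-CoA synthase, changed by 0.70 ± 0.53, or 0.30 without 20A. Sqle, squalene epoxidase, changed by 1.88 ± 0.94 (limma p = 0.0645, exact permutation p = 0.156), Tm7sf2 by 2.47 ± 1.17 (limma p = 0.0512, exact permutation p = 0.0303) and Cyp51 by 1.00 ± 0.48 (limma p = 0.0556, exact permutation p = 0.0736). The lowest change was that of Pmvk, phosphomevalonate kinase, at -0.32 ± 0.73, and Ebp was near 0, at 0.00 ± 1.04. In microglia of the same treatment groups the list had a median change of 0.10.

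**Figure D5:**
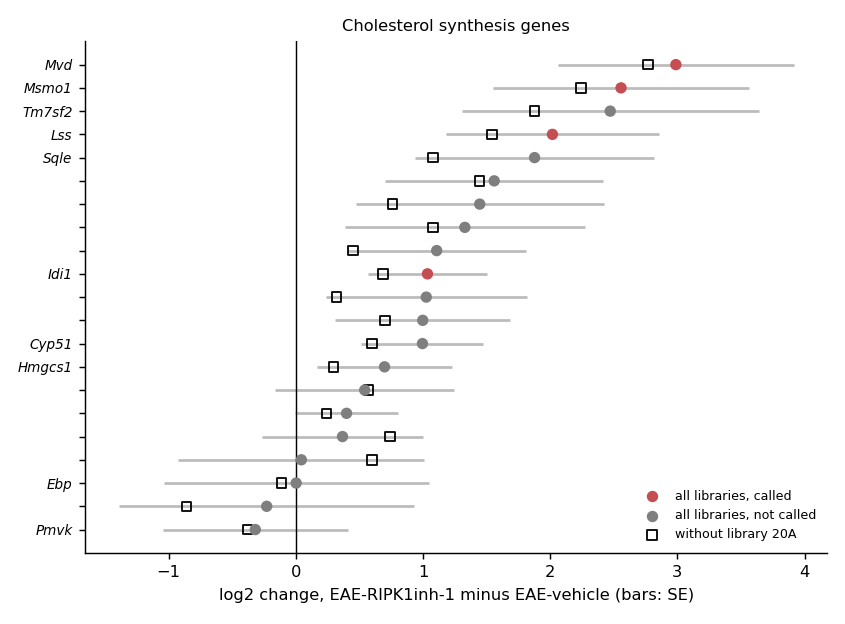
Change with RIPK1inh-1 (log2, with SE) for 21 cholesterol synthesis genes (those named in the text are labeled) with all libraries (filled circles, red where called) and without library 20A (open squares). Mvd stands at 2.99 with all libraries and 2.77 without 20A, and Msmo1 at 2.56 and 2.24.

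Of 21 genes of sterol regulation and transport, 17 had a higher mean, with a median change of 0.74, or 0.68 without 20A. Of these 21, 3 were called higher (14.3%, against 6.41% of all genes) and none lower. Without both 20A and 6A, 1 was called. Apoe, the main lipid carrier that astrocytes secrete (chromosome 7, 19696109 to 19699188, minus strand), lay between 11.48 and 12.10 in the 6 vehicle libraries. With RIPK1inh-1 it was 12.23, 12.10, 11.93, 12.23 and 13.93, and in naive libraries 13.01 to 14.48. It rose by 0.86 ± 0.33 (limma p = 0.0213, exact permutation p = 0.00866), with inhibitor replicate 5 far above the others, and by 0.83 without 20A and 6A (limma p = 0.0671). Abca1, the transporter that loads cholesterol onto apolipoproteins, rose by 1.36 ± 0.53 (limma p = 0.0224, exact permutation p = 0.0281), and its 5 inhibitor values were close together, from 2.57 to 3.13, against 0.18 to 2.71 with vehicle. Lcat, which esterifies cholesterol on lipoproteins, rose by 1.77 ± 0.79 and was not called without 20A. Srebf2, which encodes SREBP-2, was 4.39 ± 2.19 with vehicle and 5.88 ± 0.27 with RIPK1inh-1.

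Among 15 genes of fatty acid synthesis, 10 had a higher mean, with a median change of 0.62, and 2 were called (13.3%, against 6.41% of all genes). Without 20A 1 was called, and without both 20A and 6A none. Fads2, a desaturase of polyunsaturated fatty acids, was 5.47 to 7.82 with vehicle and 8.03, 8.78, 7.61, 8.02 and 8.78 with RIPK1inh-1. It rose by 1.22 ± 0.45 (limma p = 0.0156, exact permutation p = 0.013), and by 0.91 without 20A (limma p = 0.0316), with inhibitor replicate 3 alone inside the vehicle range. Acss2, acetyl-CoA synthetase, rose by 1.25 ± 0.57 and was not called without 20A.

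Ribosomal protein genes were mostly lower with RIPK1inh-1, by a small amount. In the small subunit, 31 of 33 genes had a lower mean, 5 were called lower and none higher, and the median change was -0.44. In the large subunit, 43 of 48 had a lower mean, 4 were called lower and none higher, and the median was -0.33. The shares called were 15.2% of the small and 8.33% of the large subunit, against 6.41% of all genes. Without 20A the medians were -0.47 and -0.45, with 6 genes of each subunit called lower, and without both 20A and 6A they were -0.62 and -0.59, with 10 and 5. Of the 5 called small subunit genes, 1 was called without EAE-RIPK1inh-1 replicate 1, without replicate 5, or without EAE-vehicle replicate 3, 5 or 6. With a block for replicate number the medians were -0.30 and -0.22, with 1 and 2 genes called lower. With each library centered they were -0.36 and -0.24, also with 1 and 2 genes called lower. The small subunit mean was 5.83 to 6.88 in vehicle libraries, 5.75 to 6.32 in inhibitor libraries and 5.04 to 5.47 in naive libraries. EAE-RIPK1inh-1 libraries 1, 2 and 5 lay below all vehicle libraries and libraries 3 and 4 within their range.

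Rpl41 (chromosome 10, 128548114 to 128549305, minus strand), a short protein of the large subunit, was 8.83 to 9.66 with vehicle and 8.37, 8.64, 8.60, 8.37 and 8.78 with RIPK1inh-1. All 5 inhibitor libraries were below all 6 vehicle libraries, and it fell by 0.74 on the log2 scale (SE 0.22, limma p = 0.00396, exact permutation p = 0.00433). Rpl37a did not overlap either, with 7.33 to 7.87 with vehicle and 5.37 to 7.22 with RIPK1inh-1, a change of -1.07 ± 0.32 (limma p = 0.0047, exact permutation p = 0.00216). Rpl23 changed by -0.77 ± 0.31, and its groups did not overlap. Fau, which encodes a ubiquitin-like fusion with a small subunit protein, was called at -1.06 ± 0.37 (limma p = 0.0124, exact permutation p = 0.013) and its change in microglia was 0.30. Rps18, Rps13 and Rps16 were called at -0.69, -0.76 and -0.85.

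Of 41 translation initiation genes, 28 had a lower mean, with a median of -0.20. In this list 3 were called lower and none higher, a share of 7.32%, near the 6.41% of all genes. Without 20A 2 were called, and without both 20A and 6A 1. Eif2b4, a subunit of the eIF2B exchange factor that recycles eIF2 (chromosome 5, 31187558 to 31193430, minus strand), had the lowest p of these. It was 4.61 to 6.52 in vehicle libraries, with a median of 5.20, and 1.35, 0.09, 3.83, 3.44 and 0.15 with RIPK1inh-1, where 3 of 5 libraries had signal. The groups did not overlap, and Eif2b4 fell by 3.52 on the log2 scale (SE 0.69, limma p = 0.000136, exact permutation p = 0.00216). Naive libraries lay between 3.59 and 4.78. Eif3a, a scaffold subunit of eIF3, was 4.94 to 6.10 with vehicle and 2.81 to 4.93 with RIPK1inh-1, a change of -1.62 ± 0.58. Eif4e2, a cap-binding protein, was called at -1.52 ± 0.69 with inhibitor replicate 5 lowest at 1.29, and was not called without 20A. Among 9 elongation and termination genes, Gspt1, a termination factor, was called at -1.70 ± 0.59. None of 23 genes of the integrated stress and unfolded protein responses was called with all libraries, and 1 was called higher without 20A. Atf4, the transcription factor made when eIF2B activity is low, was 3.95 ± 2.05 with vehicle and 4.98 ± 0.73 with RIPK1inh-1.

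Interferon response genes were mostly lower with RIPK1inh-1. Of 29 genes, 23 had a lower mean, 6 were called lower and none higher, and the median change was -0.53, or -0.69 without 20A, where 5 of the 6 were called. The share called with all libraries was 20.7%, against 6.41% of all genes. Without both 20A and 6A, 3 genes of the list were called lower and the median was -0.84. The calls rested on single libraries. Without EAE-RIPK1inh-1 replicate 5 none of the 6 was called, without replicate 1 it was 1, without EAE-vehicle replicate 6 it was 1, without EAE-vehicle replicate 5 it was 2, and with a block for replicate number it was 0. The mean of the list was 4.84, 6.13, 6.21, 6.15 and 5.33 in inhibitor replicates 1 to 5 and 5.45 to 6.85 in vehicle libraries, and 1.07 to 1.66 in naive libraries. Inhibitor replicates 1 and 5 were below all vehicle libraries and replicates 2, 3 and 4 within their range.

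The called genes were guanylate-binding proteins and other GTPases and modifiers that cells make in response to interferon. Gbp2 (chromosome 3, 142620602 to 142638008, plus strand), whose promoter is printed above, was 7.20 to 9.09 with vehicle, with a median of 8.45, and 6.83, 8.08, 7.38, 7.61 and 6.66 with RIPK1inh-1. It was called at -1.01 ± 0.40 (limma p = 0.0237, exact permutation p = 0.0433), and naive libraries held 0.09 to 0.92. Gbp3, next to it in the genome (142560026 to 142573209), was 7.39 to 8.61 with vehicle and 4.00, 7.62, 7.35, 7.11 and 5.89 with RIPK1inh-1, a change of -1.65 ± 0.68 (limma p = 0.0283, exact permutation p = 0.0108). Gbp4 was called at -2.34 ± 0.94, with inhibitor replicates 1 and 5 at 1.15 and 1.24 and the other inhibitor libraries at 3.72 to 6.10. Gbp6 was called at -0.92 ± 0.38, Isg15, a ubiquitin-like modifier, at -1.19 ± 0.50 and Tgtp1, an interferon-inducible GTPase, at -2.19 ± 0.97, the last not without 20A. Guanylate-binding proteins are close copies of each other, and the deposited annotation marks Gbp2, Gbp4 and Gbp6 as confounded with another gene, so reads could have been shared among them. The transcription factor Irf1 was not called, at 5.35 ± 1.03 with vehicle and 4.59 ± 1.92 with RIPK1inh-1.

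Markers of infiltrating cells moved among the libraries too. The mean level of 8 monocyte and neutrophil markers was 1.76 and 1.90 in inhibitor replicates 1 and 5, and 2.92, 6.34 and 3.58 in replicates 2, 3 and 4, against 2.01 to 5.33 with vehicle. Summed over all 10 listed markers in the table (each log2 value returned to the linear scale, less 1), the level ran from 46.0 to 2431 with RIPK1inh-1 and from 73.7 to 560 with vehicle, 7 of the 8 markers with a mean of at least 1 had a lower mean with RIPK1inh-1, and none was called. For 9 T cell markers the mean was 1.26 and 2.38 in inhibitor replicates 1 and 5 and 3.24, 5.42 and 5.35 in the others, and 1.30 to 5.75 with vehicle, with a summed level of 62.4 to 699 and 43.6 to 754. The neutrophil marker Ly6g was at 0 in all 11 libraries. Summed microglia markers were 91.3 to 164 with RIPK1inh-1 and 58.8 to 378 with vehicle. The part of these cells in the interferon result was not tested.

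Calls in the other inflammatory lists were few, and several counts changed without 20A. Of 23 antigen presentation genes, 15 had a lower mean and 1 was called, Ciita, the master regulator of MHC class II genes, which was called higher at 1.48 ± 0.56 (limma p = 0.0184, exact permutation p = 0.0368). Ciita was 0.00 to 1.60 with vehicle and 0.65, 1.07, 2.83, 3.50 and 2.79 with RIPK1inh-1. Its targets had lower means, with Cd74 at 8.27 ± 0.95 and 7.38 ± 1.11 and H2-Ab1 at 7.03 ± 0.82 and 6.23 ± 0.94, neither called. The median of the list was -0.27, or -0.54 without 20A. Without EAE-RIPK1inh-1 replicate 1 it was 0.09, so its sign turned with that library. Of 13 chemokines 1 was called, Ccl19, a ligand of CCR7, which fell by 2.30 on the log2 scale (SE 0.76, limma p = 0.00842, exact permutation p = 0.0303) and had signal in 6 of 6 vehicle and 2 of 5 inhibitor libraries. Cxcl10, an interferon-induced ligand of CXCR3, was 6.55 ± 1.72 and 6.20 ± 0.69. Without 20A 3 chemokines were called lower, and without both 20A and 6A 3 were called lower and 1 higher, with medians of -0.03, -0.19 and -0.21 over the 3 fits. Of 15 cytokines and growth factors 1 was called, Tgfb3, at -2.11 ± 0.93, against 2 lower and 1 higher without 20A. None of 8 complement genes was called with all libraries and 1 was called lower without 20A, with medians of -0.82 and -0.92. The complement median was 0.17 without EAE-RIPK1inh-1 replicate 1, so its sign turned as well. C3 was 4.47 ± 0.68 and 3.61 ± 2.10.

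Reactive astrocyte genes had few calls with all libraries. Of 11 pan-reactive genes, 8 had a lower mean and 1 was called, Serpina3n, a secreted protease inhibitor. The median of the list was -0.35, or -0.80 without 20A with 2 called lower, or -0.67 without both 20A and 6A with 3 called lower. Serpina3n was 7.89 to 9.39 with vehicle and 6.88, 8.52, 6.27, 8.27 and 6.29 with RIPK1inh-1, and fell by 1.23 on the log2 scale (SE 0.45, limma p = 0.0156, exact permutation p = 0.0563). Inhibitor replicates 1, 3 and 5 were below all vehicle libraries and replicates 2 and 4 within their range. Vim was 6.97 ± 0.98 and 6.24 ± 1.28, and Lcn2, lipocalin 2, was 8.65 ± 0.84 and 7.84 ± 1.51, neither called. Of 8 genes of the A1 set, Gbp2 alone was called, against 2 without 20A, and the median was -0.72. None of 7 genes of the A2 set was called, and the median was -0.45, or -0.78 without 20A. Without both 20A and 6A it was -0.82, with 1 called lower. Among 17 matrix and scar genes, 2 were called higher (11.8%, against 6.41% of all genes called). Mmp14, a membrane-bound matrix metalloproteinase (chromosome 14, 54431612 to 54445364, plus strand), was 3.33, 0.02, 0.78, 0.80, 0.63 and 1.22 in vehicle replicates 1 to 6 and 4.92, 1.97, 3.12, 3.04 and 4.71 with RIPK1inh-1. Vehicle replicate 1 (20A) alone overlapped the inhibitor libraries. Mmp14 rose by 2.42 ± 0.65, and by 2.86 without 20A. Bcan, the proteoglycan brevican, rose by 1.91 ± 0.63 (limma p = 0.00822, exact permutation p = 0.013), from 3.89 to 6.19 with vehicle to between 5.48 and 9.01.

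Ripk1 and Ripk3 had no signal in part of the EAE libraries. Ripk1 (chromosome 13, 34002363 to 34037147, plus strand) had signal in 3 of 6 vehicle and 4 of 5 inhibitor libraries. Its levels were 0.00 to 1.95 with vehicle and 0.00, 2.44, 1.63, 0.62 and 1.44 with RIPK1inh-1, a change of 0.56 ± 0.61 (limma p = 0.372, exact permutation p = 0.312). Ripk3 had signal in 1 vehicle library, at 3.99, and in no inhibitor or naive library. Mlkl, the pore-forming effector of necroptosis, was 0.09 to 4.52 with vehicle and 0.29 to 3.53 with RIPK1inh-1 (change -0.56 ± 0.88, limma p = 0.535, exact permutation p = 0.597). An inhibitor of the kinase need not alter the transcript, so these levels do not check the dosing. Of 28 genes of the RIPK1 complexes and necroptosis 3 were called (10.7%, against 6.41% of all genes), all lower. The median was 0.08, or -0.10 without 20A and 6A. Without 20A, 3 were called lower and 1 higher. Zbp1, a nucleic acid sensor that engages RIPK3 (chromosome 2, 173206612 to 173218923, minus strand), was 4.92 to 6.80 with vehicle and 1.46, 3.67, 5.60, 5.73 and 0.07 with RIPK1inh-1. It fell by 2.37 on the log2 scale (SE 0.88, limma p = 0.0165, exact permutation p = 0.0411), with inhibitor replicates 3 and 4 inside the vehicle range. Birc2, the ubiquitin ligase cIAP1, was called at -2.10 ± 0.84, and Ikbkb, the kinase IKK beta, at -2.06 ± 0.92. With values that carried no signal set to 0, 1 of the 3 was called. None of 15 NF-kB and AP-1 genes was called, with a median of -0.40, or -0.17 without 20A, where 1 was called higher. Without both 20A and 6A it was -0.44, with 1 called lower.

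Outside these groups, the called genes of lowest p with signal in at least 8 of the 11 libraries were taken in each direction. Aph1b, a subunit of the gamma-secretase protease (chromosome 9, 66775202 to 66795490, minus strand), was 0.00 to 2.39 with vehicle, 3.85, 3.83, 3.77, 2.96 and 4.97 with RIPK1inh-1 and 3.35 to 4.12 in naive libraries. It rose by 2.67 ± 0.53 (limma p = 0.000146, exact permutation p = 0.00216), and by 2.54 without 20A and 6A (limma p = 0.000332). Tspan7, a membrane tetraspanin, was 7.71 to 8.57 with vehicle and 8.59 to 9.41 with RIPK1inh-1, and rose by 0.93 ± 0.20 (limma p = 0.000274, exact permutation p = 0.00433). Among the falls, Yars2, the mitochondrial tyrosyl-tRNA synthetase (chromosome 16, 16302965 to 16309640, plus strand), had the lowest p. Yars2 was 4.06, 2.22, 3.88, 3.35, 3.94 and 3.00 in vehicle replicates 1 to 6 and 0.00, 0.57, 0.00, 0.67 and 0.00 with RIPK1inh-1, with signal in 6 of 6 and 2 of 5 libraries. It fell by 3.16 on the log2 scale (SE 0.57, limma p = 5.87e-05, exact permutation p = 0.00216, adjusted p = 0.840).

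The other rises chosen in this way follow. Ncam1, the neural cell adhesion molecule, was 4.11 to 6.11 with vehicle and 6.03 to 8.12 with RIPK1inh-1, and rose by 1.69 ± 0.42 (limma p = 0.00109, exact permutation p = 0.00649). Slc15a2, a peptide transporter of astrocytes, rose by 3.64 ± 0.82, from a vehicle median of 1.47 to between 3.90 and 6.05. Scrg1 rose by 1.44 ± 0.36, Cyp4f15, a fatty acid hydroxylase, by 3.00 ± 0.71 and Hoxa9, a homeobox gene of the posterior spinal cord, by 2.76 ± 0.59. Prkab2, a regulatory subunit of AMP-activated kinase, rose by 2.42 ± 0.56 and the kinase gene Nim1k by 3.01 ± 0.74. All 10 rises were called without 20A and without both 20A and 6A.

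The other falls chosen in this way are given next. Ccp110, a centriolar protein that restrains cilium formation, was 2.66 to 4.89 with vehicle and 0.22, 0.67, 2.00, 1.11 and 0.36 with RIPK1inh-1, with no overlap, and fell by 2.67 on the log2 scale (SE 0.52, limma p = 0.000113, exact permutation p = 0.00216). B9d2, of the ciliary transition zone, was called at -3.08 ± 0.67, and Cdc16, a subunit of the anaphase-promoting complex, at -2.21 ± 0.50 with no overlap (4.93 to 6.33 and 2.24 to 4.48). Tsc2, which restrains mTORC1, was called at -2.18 ± 0.50, with inhibitor replicate 3 alone inside the vehicle range. Lhfpl2 was called at -2.67 ± 0.55, Tbc1d20, a GTPase-activating protein for Rab1, at -2.53 ± 0.59, Susd6 at -2.43 ± 0.61 and Fmo1, a flavin monooxygenase, at -2.62 ± 0.67. All 10 falls were called without 20A and without both 20A and 6A. For 8 of the 10, at least 1 inhibitor library had no signal, and with values without signal set to 0 all 10 were still called.

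Some genes had signal mainly in one group. By the rule of signal in at least 4 of 5 inhibitor and at most 1 of 6 vehicle libraries, 45 protein-coding genes were found. By the reverse rule (at least 5 of 6 vehicle and at most 1 of 5 inhibitor libraries) 110 were found. Both counts were taken among the protein-coding genes of the 30718 that vary, with no minimum level. They are thus not counts among the 11240 genes. The vehicle libraries include 6A, which held signal for 22109 genes, and 20A, which held 6728, and the part of detection in these counts was not tested. Tgds had no signal in any vehicle library and signal in all 5 inhibitor libraries, at 4.35, 0.55, 3.11, 3.33 and 1.48. Cmas, which activates sialic acid, had signal in 1 of 6 vehicle and 4 of 5 inhibitor libraries and a change of 2.14 ± 0.79. In the other direction, Secisbp2, which is needed to insert selenocysteine, was 2.46 to 4.45 with vehicle and 0.00 in 4 inhibitor libraries, with 1.43 in replicate 5, and was called at -3.08 ± 0.67. Arrdc4, an arrestin-domain protein, had signal in 5 of 6 vehicle libraries and in no inhibitor library, and Ptpn5, a tyrosine phosphatase of neurons, in 5 of 6 and 1 of 5.

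Energy, protein turnover and proliferation lists held few calls. None of 76 nuclear respiratory chain genes and none of 13 mitochondrially encoded genes was called, with medians of -0.10 and -0.14. Without 20A the median of the mitochondrially encoded genes was 0.00. Of 19 glycolysis and lactate genes, 17 had a higher mean, and Slc2a1, the glucose transporter GLUT1, was called higher by 2.43 ± 0.89, or 1.73 without 20A. Slc2a1 was 0.19 to 5.24 with vehicle and 5.36, 6.71, 5.81, 4.56 and 8.28 with RIPK1inh-1, with inhibitor replicate 4 alone inside the vehicle range. Tfrc, the transferrin receptor, was the called gene of 22 antioxidant, iron and metallothionein genes, at 1.79 ± 0.74, and missed the cutoff without 20A. Of 31 proteasome genes Psmb6 was called at -0.61 ± 0.29, and not without 20A, where the list had 1 other call. Of 22 cell cycle genes Ccnb2, cyclin B2, was called at -1.88 ± 0.64, against 2 called lower without 20A, and none of 15 heat shock genes was called, against 1 lower without 20A. Among markers of other cells, Tubb3, a neuronal tubulin, was 5.21 to 5.98 with vehicle and 4.32, 0.98, 5.09, 4.48 and 1.43 with RIPK1inh-1, with no overlap, and fell by 2.26 on the log2 scale (SE 0.75, limma p = 0.00849, exact permutation p = 0.00216). Ccdc153, an ependymal marker, had signal in 5 of 6 vehicle libraries and in no inhibitor library (-1.72 ± 0.57). The other 2 ependymal markers had higher means with RIPK1inh-1, neither was called, and the median of the 3 was 0.64. Of 6 neuron markers 4 had a lower mean, and Tubb3 was the one called.

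The change with RIPK1inh-1 in astrocytes was compared with that in microglia of the same treatment groups by an interaction term. The study describes 1 set of mice as the source of both cell types, but no label ties an astrocyte library to a microglia library, so the fit treats them as independent. Of the 11240 genes, 610 (5.43%) had an interaction p under 0.05 in limma, none had an adjusted p under 0.05, and the smallest adjusted p was 0.693. Genes chosen by their call in astrocytes share those values with the interaction, so only their changes in microglia are given. These were 0.00 for Gjb6, -0.17 for Mmp14, -0.36 for Eif2b4, -0.27 for Aph1b, -0.49 for Gbp2 and -0.51 for Gbp6. Levels in microglia are not given, so a change near 0 may reflect low expression there.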

How the data were processed

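RNA of sorted spinal cord astrocytes and microglia was sequenced in 30 libraries, 15 of astrocytes (4 naive, 6 EAE-vehicle, 5 EAE-RIPK1inh-1, a mouse each). The authors amplified cDNA from poly(A) RNA, fragmented it with Tn5 transposase, quantified genes in OmicSoft Array Studio and deposited log2 FPKM values that are quantile-normalized over all libraries. The aligner and the offset before the logarithm are not given in the sources used here. Depth is unknown, so no counting error was computed, and 0 columns belonged to other series.

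Groups were assigned from the labels. Values were fitted with limma 3.58.1 in R 4.3.3 (lmFit, eBayes with trend) over 15 astrocyte libraries and 30718 genes that vary. Calls needed a fold over 1.5 with an unadjusted p under 0.05. The paper names a paired test, but the labels pair no mice, so fits were unpaired. Single genes also had a two-sided exact permutation test over 462 splits. The interaction with cell type was fitted over all 30 libraries as independent, since the labels do not tie the astrocyte and microglia libraries of a mouse. Genes without signal were recognised by their order in the table, where tied values rise with position. Named genes were the 10 called protein-coding rises and 10 falls of lowest p with signal in at least 8 of 11 libraries, up to 4 called genes a list, Ripk1, Ripk3 and Mlkl, the cholesterol synthesis genes, and 5 genes in each direction with signal mainly in 1 group. Other homeostatic genes, and uncalled genes given for their role (such as Aqp4 and Cd74), were named after their values were seen. The members and lists were chosen with earlier results of these data known. At least 1 gene within these rules is left unnamed, though list counts hold it. The 110 named genes lay where GENCODE M21 on GRCm38 places them, and promoters came from RefSeq. The fits were tested on simulated data with known changes. Alternatives were other scalings, filters, offsets, variance models, weights, a replicate block and each library left out.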

Additional observations from a re-analysis of the deposited data

Results flagged for a closer look

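Of 196 groups of values examined, 27 had a highest or lowest library whose gap to the next exceeded Dixon's 95% limit. The groups were named genes and 5 list means in the EAE astrocyte groups, and the genes with signal. Chance passes this limit in about 1 of 20 groups. The 27 cannot be set against that rate, since some genes were named for signal in at most 1 library of a group. In such genes, as Cmas with vehicle and Secisbp2 and Ptpn5 with RIPK1inh-1, 1 library stands apart by that choice. EAE-vehicle replicate 1, library 20A, stood apart for 6 genes, at 6.52 for Eif2b4, 5.39 for Fmo1, 8.49 for Rpl35, 5.29 for Gspt1, 1.13 for Ikbkb and 3.33 for Mmp14 (log2 FPKM). Of the other vehicle libraries, replicate 2 did so at 3.29 for Fdps, replicate 3 at 3.99 for Ripk3, 3.35 for Cmas and 3.16 for Dhrs13, replicate 4 at 2.70 for Prkab2, 12.10 for Apoe and 2.55 for Hoxc5, replicate 5 at 2.87 for Hoxa9 and replicate 6 at 2.94 for Cyp4f15.

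Among the EAE-RIPK1inh-1 libraries, replicate 1 stood apart at 8.28 for Idi1, 4.69 for Rpl35, 0.00 for Gspt1 and 1.99 for Pmvk. Replicate 3 did so at 3.90 for Slc15a2 and 2.33 for Ptpn5, replicate 4 at 1.51 for Acat2, 4.71 for Ccpg1os and 1.34 for Iqcb1, and replicate 5 at 13.93 for Apoe, 0.65 for Ccdc153 and 1.43 for Secisbp2. The values of Ikbkb in vehicle replicate 1, Gspt1 in inhibitor replicate 1 and Ccdc153 in inhibitor replicate 5 carried no signal, so these 3 are not measurements. Neither the 5 list means nor the number of genes with signal had such a library. The causes were not tested.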

How the results depend on the processing

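The medians of the 5 leading lists kept their sign in every setting run. The balance of calls did not, with 408 higher and 313 lower in all libraries, 341 and 345 without 20A, 298 and 404 without 20A and 6A, and 477 and 478 with quality weights. The 721 called genes became 603 to 828 with each library left out (322 to 498 higher, 253 to 394 lower), and the 610 interaction genes 501 to 785. Among genes with a mean log2 of at least 2, 269 were called higher, against 408 with a mean of at least 1. Over 15 settings for each list, 26 of 36 list medians kept their sign. Left-out libraries moved the median change from 0.62 to 1.16 for homeostatic, 0.69 to 1.30 for cholesterol synthesis, -0.69 to -0.20 for interferon response, -0.59 to -0.30 for small subunit and -0.45 to -0.22 for large subunit genes. Of 84 called named genes, 49 were called with any 1 library left out, and most were lost without EAE-RIPK1inh-1 replicate 5 (26) or replicate 1 (20). Leaving out both 20A and 6A was chosen after seeing the data. The replicate block gave 693 called genes, 415 higher and 278 lower, and 600 interaction genes. No pairing by replicate number was evident, as same-numbered libraries deviated with correlations of -0.14 to 0.13 over 3557 genes, 1 of 5 pairs over 0.1. These few values cannot show that there was none.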
